A study of Homo sapiens with 38 samples.

Results

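AP-1 is a family of transcription factors built from paired subunits, and 5 of its subunit genes (FOS, FOSL1, FOSL2, JUN and JUNB) were followed here together with ATF3, a related stress-response repressor. The members were taken by name: a probe set counted as a member when its single gene symbol in the platform annotation was one of these 6. Each gene had 1 such probe set, so the members were 6 of the 11893 gene symbols that a probe set carried alone, and 6 of the 14488 probe sets in the table (probe sets 7975779 for FOS, 7949532 for FOSL1, 8041048 for FOSL2, 7916609 for JUN, 8026047 for JUNB and 7909610 for ATF3), and no filter on low values removed any of them. Their levels were measured in A549 cells, an established human lung adenocarcinoma line, on 38 Affymetrix arrays in 10 groups. Cells of the knockdown arm had received a pool of siRNAs against ORMDL3, which encodes a brake on sphingolipid synthesis in the endoplasmic reticulum, and cells of the other arm are labelled only as controls. All cells in both arms were held for 48 h of silencing and 24 h without serum, and were then given IL1B, an inflammatory cytokine, at 1 ng/ml for 2, 4, 8 or 10 h, or collected untreated at 0 h. Groups held 4 arrays each, and 3 in knockdown 0 h and control 8 h. The labels leave unsaid what, if anything, the control cells were transfected with. No later hour had untreated arrays, so that effects of IL1B and of the further hours in culture cannot be told apart. No label states that replicates came from separate cultures, so the p-values reflect the spread among these arrays alone, and that spread may be technical.

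AP-1 subunits bind DNA as dimers through a basic region next to a leucine zipper. Proteins of the Jun family can pair with each other or with a Fos protein, whereas Fos proteins need a Jun partner, and the dimers recognise the element TGACTCA or the longer cyclic AMP response element (CRE). FOS and JUN are immediate-early genes, switched on within minutes by MAP kinase signalling without new protein synthesis, and FOS messenger RNA is short-lived. FOSL1 and FOSL2 encode Fos proteins without the strong activation domains of FOS, JUNB is a weaker activator than JUN in many settings, and ATF3 can form dimers with Jun proteins. In airway epithelium AP-1 acts beside NF-kB on cytokine and protease genes.

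RefSeq (GRCh38.p14) listed promoters for 5 of the 6 genes, with 6 transcription starts in all because ATF3 had 2, and FOSL1 had no entry. Each window held 250 bases before and 50 after the start, and both strands were searched for 7 motifs, whose shares among all 35116 listed promoters are given for comparison. The sequences of the last 150 bases before the start are shown for FOS and JUNB, which rose together between 4 and 8 h, and for JUN and ATF3, which had their highest control mean at 2 h. FOSL2 also had its highest control mean at 2 h, and a link of motifs to time courses was not tested. Capitals mark a CRE core (TGACG or CGTCA), the TATA element TATAAA, or the JUN-type element TGACATCA, and all 4 are printed 5′ to 3′ on the strand of the gene. The position counts take -1 as the base before the start.
FOS, chr14:75278678-75278827, plus strand: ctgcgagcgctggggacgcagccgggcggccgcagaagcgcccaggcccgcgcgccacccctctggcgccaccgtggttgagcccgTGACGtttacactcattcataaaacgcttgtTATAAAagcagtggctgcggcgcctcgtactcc
JUNB, chr19:12791336-12791485, plus strand: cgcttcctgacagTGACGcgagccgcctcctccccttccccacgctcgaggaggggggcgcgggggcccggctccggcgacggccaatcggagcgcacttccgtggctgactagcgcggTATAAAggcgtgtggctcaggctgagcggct
JUN, chr1:58784048-58784197, minus strand: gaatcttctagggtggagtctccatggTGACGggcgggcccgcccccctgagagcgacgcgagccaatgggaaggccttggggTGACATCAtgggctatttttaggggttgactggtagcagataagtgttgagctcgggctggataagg
ATF3, first listed start, chr1:212565257-212565406, plus strand: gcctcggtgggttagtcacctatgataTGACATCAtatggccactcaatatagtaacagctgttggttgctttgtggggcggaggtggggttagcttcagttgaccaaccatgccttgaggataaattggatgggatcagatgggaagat
FOS and JUNB each held TATAAA close to the start, at -33 to -28 and -31 to -26, and a TGACG at -64 to -60 and -137 to -133. TATAAA, or TTTATA on the other strand, was found in 11.5% of promoters and a CRE core in 24.6%. JUN also held a TGACG, at -123 to -119. JUN and ATF3 both held TGACATCA, at -67 to -60 and -123 to -116, an element present as TGACATCA or TGATGTCA in 2.61% of promoters. In ATF3 it was at the first listed start only, and the FOSL2 window held none. The 5-base CRE core overlaps the full CRE (TGACGTCA) where both occur, and none of the 6 member windows held the full CRE, which 1.85% of promoters had. The AP-1 element itself (TGACTCA or TGAGTCA, in 4.95% of promoters) was found in the FOSL2 window only, at 5 to 11 bases past the start. It is in capitals in this stretch. The same window held CRE cores at -201 to -197 and -66 to -62, and the window of the second ATF3 start a TATAAA at -230 to -225.
FOSL2, chr2:28392854-28392876, plus strand: cattgtagTGACTCAtctcgggc
The CArG box, to which serum response factor binds, was in 1.29% of promoters and the NF-kB consensus in 5.91%, and these windows of the members held neither. Elements more than 250 bases before the start were not searched, so either motif may lie further out. These matches describe the letters of the windows and are not measured binding sites.

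The values are log2 expression levels per probe set, and a difference of 1 is a doubling. Array medians lay between 8.02 and 8.19, and arrays of the same group correlated at 0.9866 to 0.9958 over all probe sets. ORMDL3 was at 5.00 to 5.57 in knockdown arrays and 6.78 to 7.77 in control arrays. The epithelial markers KRT7, KRT8, KRT18, AKR1B10 and ALDH1A1 stood between the 97.9th and 99.9th percentile of the arrays, whereas EPCAM (16.2 to 38) and CLDN4 (9.6 to 25.5) were low, and KRT19 (52.8 to 81.3) and CDH1 (66.9 to 89.6) lay between. With IL1B in controls 6 of the 9 measured epithelial markers fell as means of 4 hours. Of all probe sets 39.3% were called (2623 of 14488 up, 3065 down). Among the markers that fell were CDH1, by 0.81 ± 0.08, and KRT19, by 0.66 ± 0.07, and the list's median change was -0.31. As means of 5 hours KRT19 was higher in knockdown cells by 0.60 ± 0.04 and EPCAM lower by a difference of -0.19 ± 0.06. These were the 2 of 9 called there, against 23.0% of all probe sets. Of the markers of other cell types, CD14 and ITGAM (leukocyte, 2 of 7 listed), COL1A1 (fibroblast, 1 of 6) and CDH5 (endothelial, 1 of 5) were measured, and the highest percentile of any was 48.4. CDH5 rose with IL1B in controls by 1.13 ± 0.09 and ITGAM by 0.61 ± 0.07 as means of 4 hours, and the part of either set of markers in the results was not tested. ATF3 was also low on the arrays, between the 16.2nd and 48.7th percentile, while the other 5 members stood between the 61.2nd and 98.3rd.

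Arrays that the labels number 4 stood apart for several members. In the 9 groups with such an array, it was the lowest for JUNB in 9, for FOS in 8 and for ATF3 in 5. Averaged over those groups it lay 0.30 below the group mean for JUNB, 0.27 below for FOS and 0.25 below for ATF3, but 0.10 above for FOSL2. For FOSL1 and JUN the mean deviations were 0.06 and -0.03. The control 8 h group had no array numbered 4, so its means lack this deviation. The labels do not say what the number stands for, and results that change without these arrays are given with and without them.

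**Figure D1:**
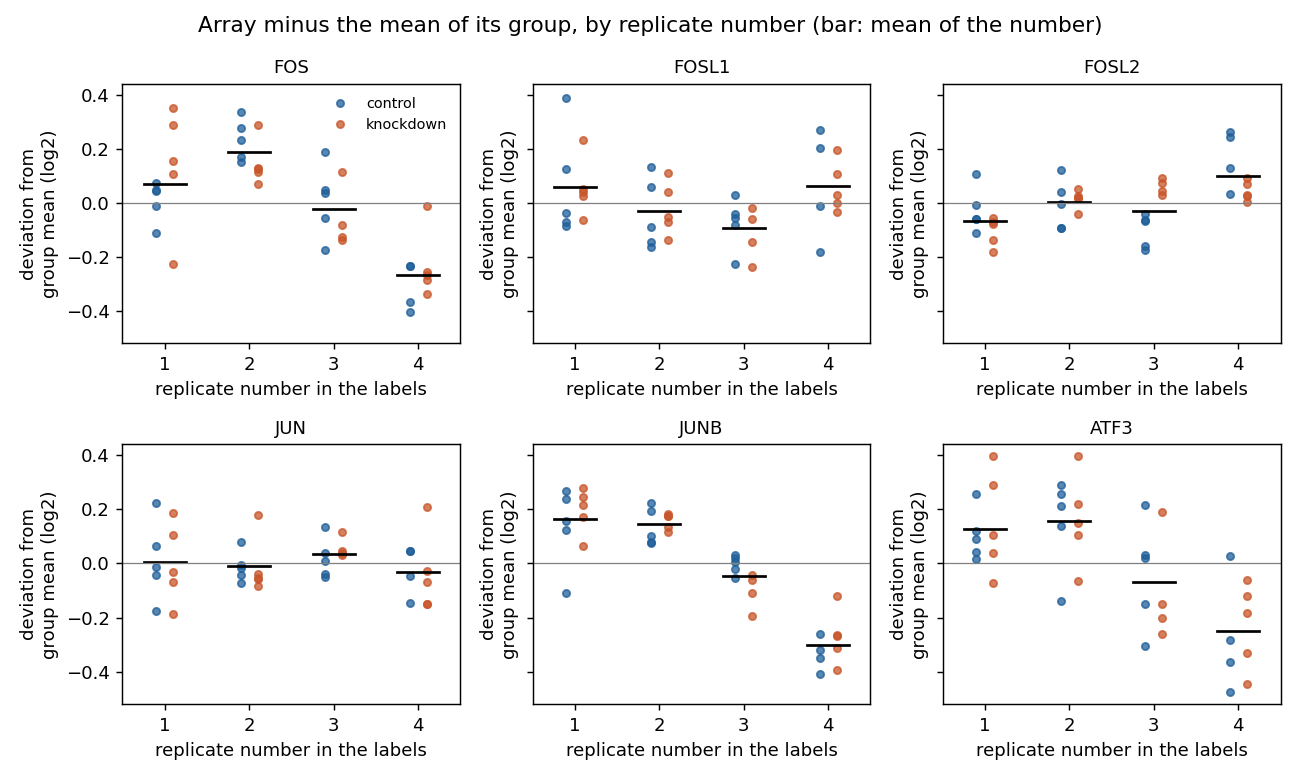
Deviation of every array from the mean of its group (log2, vertical axis) against its replicate number in the labels, for each gene, with controls in blue, knockdown in orange and a black bar at the mean of each number. The arrays numbered 4 lie lowest for FOS, JUNB and ATF3, with means of -0.27, -0.30 and -0.25, and highest for FOSL2.

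The first comparison set each hour of IL1B against 0 h in control cells. The 6 genes parted into 3 courses. FOSL1, FOSL2, JUN and ATF3 rose by 2 h and had lower means at 8 and 10 h than at 2 h, FOS fell and partly returned, and JUNB changed late. Over the 4 hours, 20 of the 24 member tests passed an adjusted p of 0.05, 16 up and 4 down, against 31.7% of all probe-set tests in these contrasts. The median size of the members' changes was 0.78 and that of all probe sets 0.16. By hour, 5, 5, 6 and 4 of the 6 members passed at 2, 4, 8 and 10 h, against 20.0%, 37.9%, 34.3% and 34.7% of all. The 4 hours were compared with the same 0 h arrays, so that errors in those arrays enter each of them.

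Among the hours sampled, FOS was highest before IL1B. No arrays were taken between 0 and 2 h, so a brief change of FOS or any other member in that time would not be seen. Its control arrays read 11.90, 12.00, 11.89 and 11.61 at 0 h, 10.38, 10.63, 10.58 and 9.99 at 2 h, then 10.03, 10.27, 10.04 and 9.63 at 4 h. The 8 h arrays read 10.78, 11.06 and 10.83, and the 10 h arrays 10.86, 11.13, 10.61 and 10.55. Every treated array lay below every untreated one. The level fell to 36.4% of the 0 h value at 2 h (-1.46 ± 0.16 on the log2 scale, adjusted p = 7.47e-09) and to 27.6% at 4 h (-1.86 ± 0.16, adjusted p = 1.53e-11). It then rose by 0.90 ± 0.17 from 4 to 8 h (adjusted p = 0.000195), and stood at 51.3% of 0 h at 8 h and 47.9% at 10 h. The 8 h group held no array numbered 4, and over the other settings the FOS rise was 0.77 to 0.90 and stayed called. The means at 8 and 10 h, 10.89 ± 0.15 (SD, n = 3) and 10.79 ± 0.26 (SD, n = 4), did not differ beyond their spread (adjusted p = 0.814). For 2 and 4 h the step was -0.40 ± 0.16 (adjusted p = 0.105). It was called without the control 2 h array numbered 4 (-0.54, adjusted p = 0.0286), but not without all arrays numbered 4. Of the 10 other settings 4 called it. With single arrays left out it ran from -0.54 to -0.28 (adjusted p = 0.0286 to 0.344).

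FOSL1, also called FRA1, is the Fos protein most often tied to invasive carcinoma cells. Its control arrays read 8.78, 8.96, 8.74 and 8.81 at 0 h, 9.85, 9.83, 9.88 and 10.12 at 2 h, then 10.18, 9.89, 9.83 and 10.32 at 4 h. Later they read 9.20, 9.35 and 9.32 at 8 h and 9.44, 8.91, 9.00 and 8.87 at 10 h. Arrays of 2, 4 and 8 h lay above all those of 0 h, and the 10 h arrays overlapped with them. The rise was 2.14-fold at 2 h (1.10 ± 0.11, adjusted p = 6.61e-10), 2.34-fold at 4 h (1.23 ± 0.11, adjusted p = 2.79e-11) and 1.38-fold at 8 h (0.47 ± 0.12, adjusted p = 0.00215). At 10 h the difference from 0 h was 0.23 ± 0.11 (adjusted p = 0.102). The levels at 2 and 4 h did not differ beyond their spread (0.13 ± 0.11, adjusted p = 0.545), and FOSL1 fell by 0.76 ± 0.12 from 4 to 8 h (adjusted p = 7.36e-06).

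FOSL2, or FRA2, stayed up through 10 h. It read 10.42, 10.58, 10.36 and 10.78 at 0 h, 11.60, 11.65, 11.59 and 11.79 at 2 h, then 11.50, 11.42, 11.35 and 11.77 at 4 h. The 8 h arrays read 11.17, 11.35 and 11.17, those of 10 h 11.47, 11.27, 11.32 and 11.39. All treated arrays were above all untreated ones. FOSL2 was 2.17-fold up at 2 h (1.12 ± 0.08, adjusted p = 6.34e-13) and still 1.77-fold up at 10 h (0.83 ± 0.08, adjusted p = 1.05e-09). From 4 to 8 h it fell by 0.28 ± 0.09 (adjusted p = 0.0253). This call did not survive the loss of the arrays numbered 4 (-0.19, adjusted p = 0.109), of control 4 h replicate 4 alone (-0.19, adjusted p = 0.141), or of control 8 h replicate 1 or 3 (-0.25 each, adjusted p = 0.101 and 0.11), nor a fit in which only the groups compared entered (adjusted p = 0.135).

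JUN, a partner of Fos proteins, peaked early and in a narrow range. Control arrays read 9.63, 9.37, 9.37 and 9.26 at 0 h and 10.29, 10.23, 10.34 and 10.35 at 2 h. The 4 h arrays read 9.91, 10.03, 9.96 and 9.91, those of 8 h 9.90, 9.82 and 9.79, those of 10 h 9.57, 9.74, 9.88 and 9.79. The 2 h arrays lay above all others, and only 1 array of 10 h, at 9.57, overlapped with 0 h. JUN was 1.85-fold up at 2 h (0.89 ± 0.09, adjusted p = 2.81e-10) and fell by 0.35 ± 0.09 from 2 to 4 h (adjusted p = 0.00447). It stayed 1.26-fold up at 10 h (0.34 ± 0.09, adjusted p = 0.00194), and the means at 4, 8 and 10 h had steps of -0.12 and -0.09 that did not pass the test (adjusted p = 0.436 and 0.664).

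JUNB moved at other times than JUN. It read 11.52, 11.50, 11.22 and 10.87 at 0 h, 11.31, 11.38, 11.22 and 10.84 at 2 h, then 11.16, 10.96, 10.87 and 10.57 at 4 h. The 8 h arrays read 11.91, 12.12 and 12.02, those of 10 h 11.96, 11.89, 11.83 and 11.55. The arrays of 0, 2 and 4 h overlapped with each other, and those of 8 and 10 h lay above them all. JUNB rose by 1.13 ± 0.17 from 4 to 8 h (adjusted p = 5.69e-06), which was the 140th largest step of the 14488 probe sets between those hours. The 8 h group held no array numbered 4, and over the other settings the JUNB rise was 1.02 to 1.13 and stayed called. Against 0 h it was 1.67-fold up at 8 h (0.74 ± 0.17, adjusted p = 0.000929) and 1.44-fold up at 10 h (0.53 ± 0.16, adjusted p = 0.009). Leaving out control 0 h replicate 4 ended the 10 h call (0.39, adjusted p = 0.0614). At 4 h JUNB was at -0.39 ± 0.16 (adjusted p = 0.0512). This change passed the test in 7 of 10 other settings. Among them were the fit without all arrays numbered 4 (-0.42, adjusted p = 0.00482) and quantile normalization (-0.45, adjusted p = 0.0175). It also passed without 11 of the 38 arrays when each was left out alone (-0.53 to -0.39, adjusted p = 0.0105 to 0.05).

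ATF3, known as a repressor that limits inflammatory transcription, had its highest control mean at 2 h. It read 6.45, 6.63, 6.44 and 6.13 at 0 h, 7.94, 7.95, 8.03 and 7.34 at 2 h, then 7.41, 7.18, 7.34 and 7.35 at 4 h. The 8 h arrays read 6.95, 7.22 and 6.63, those of 10 h 6.98, 6.98, 6.57 and 6.35. The 2, 4 and 8 h arrays were above all 0 h arrays, and the 10 h arrays overlapped. The lowest 8 h array and the highest 0 h array both round to 6.63. ATF3 was 2.64-fold up at 2 h (1.40 ± 0.18, adjusted p = 1.2e-07) and 1.87-fold up at 4 h (0.91 ± 0.18, adjusted p = 9.29e-05). At 10 h the change was 0.31 (adjusted p = 0.189). No step of ATF3 between successive hours passed, with -0.50 ± 0.18 from 2 to 4 h (adjusted p = 0.0602), -0.39 ± 0.19 from 4 to 8 h (adjusted p = 0.164) and -0.21 ± 0.19 from 8 to 10 h (adjusted p = 0.602). The first of these was called without the arrays numbered 4 (-0.66, adjusted p = 0.00735) and without control 2 h replicate 4 alone (-0.65, adjusted p = 0.0126). The 8 h change of 0.52 ± 0.19 (adjusted p = 0.0335) missed the threshold once control 0 h replicate 3 (0.53, adjusted p = 0.0504) or 4 (0.42, adjusted p = 0.112) was left out, or control 8 h replicate 1 (0.51, adjusted p = 0.0807) or 2 (0.37, adjusted p = 0.195). It missed it too with the mean level of 117 small nucleolar RNA probe sets as a covariate (0.19, adjusted p = 0.532), whose level in controls went from 7.10 ± 0.18 (SD, n = 4) before IL1B to 7.59 ± 0.09 (SD, n = 3) after 8 h.

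**Figure D2:**
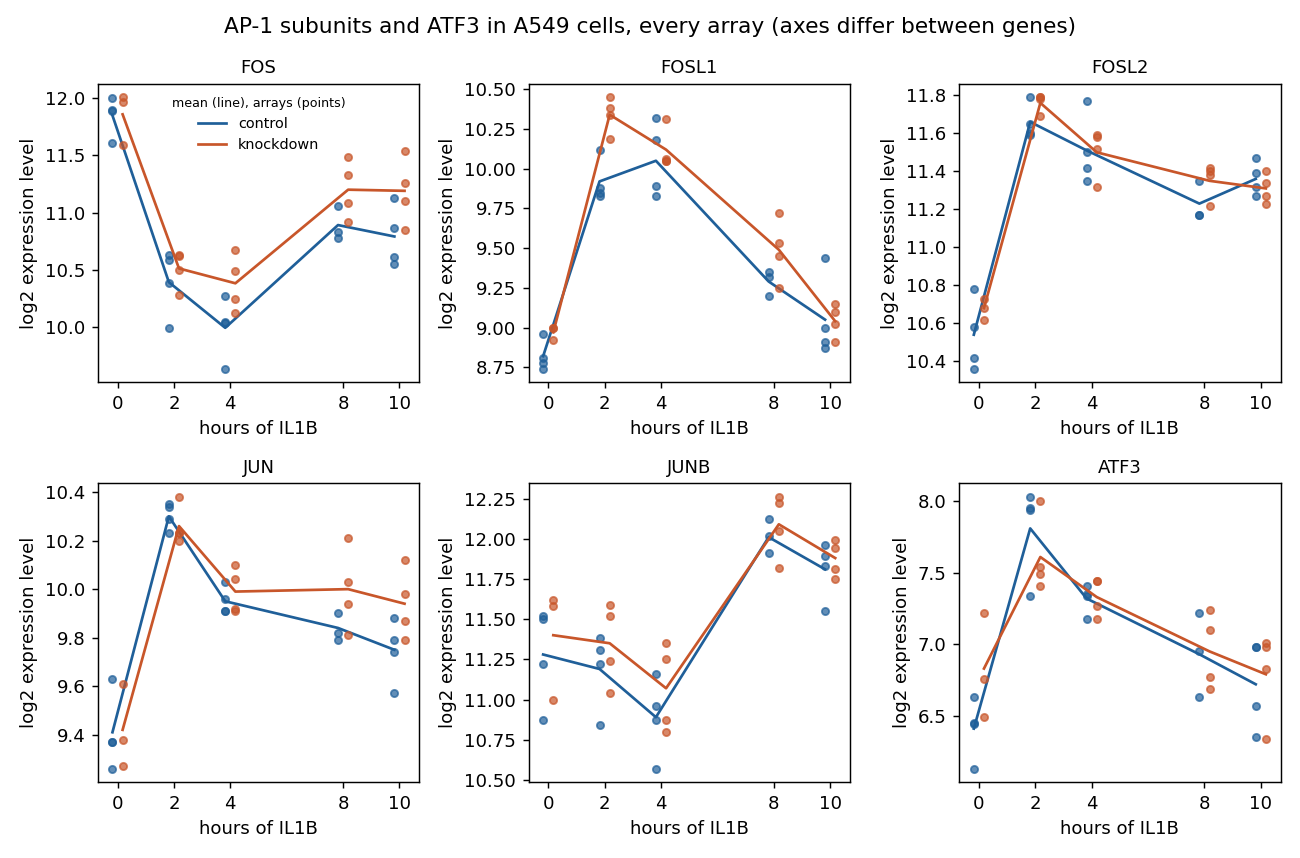
Log2 expression level of each gene (vertical axis, a different range in each panel) against hours of IL1B, with every array as a point and the group means joined by lines, for control (blue) and knockdown (orange) cells. FOS starts highest and is lowest at 4 h, JUNB rises between 4 and 8 h, and the other 4 genes are lowest at 0 h in controls, peak at 2 or 4 h and lie lower at 8 h.

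Between successive hours, 5 of the 18 member tests in controls passed, 2 up and 3 down, against 12.5% of all probe-set tests. The step from 4 to 8 h held 4 of them, against 21.1% of all probe sets at that step: FOS and JUNB rose, FOSL1 and FOSL2 fell. From 2 to 4 h only JUN passed (13.4% of all). From 8 to 10 h none did in limma's test, against 2.88% of all at the same adjusted threshold. No member had an unadjusted p under 0.05 at that last step.

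The second comparison repeated these tests within the ORMDL3 knockdown arm. FOSL1, FOSL2, JUN and ATF3 again rose by 2 h, FOS fell and JUNB rose late, with 19 of 24 tests called, 15 up and 4 down, against 27.0% of all probe-set tests. At 2, 4, 8 and 10 h these were 5, 5, 5 and 4 of 6 members, against 23.4%, 30.1%, 28.9% and 25.5% of all, and as the mean of 4 hours 4 of 6 against 31.1%. FOS arrays read 12.01, 11.97 and 11.59 at 0 h and 10.49, 10.67, 10.24 and 10.12 at 4 h, without overlap. Its change was -1.35 at 2 h, -1.48 at 4 h, -0.66 at 8 h and -0.67 at 10 h (adjusted p = 2.05e-07, 2.24e-08, 0.00396 and 0.00376). FOSL1 went from 9.00, 8.92 and 9.00 at 0 h to 10.38, 10.45, 10.19 and 10.34 at 2 h, a 2.58-fold rise (1.37, adjusted p = 2.92e-11). By 10 h it was back at 0.07 from 0 h (adjusted p = 0.741). FOSL2 rose by 1.08 at 2 h and was still up by 0.63 at 10 h (adjusted p = 1.16e-11 and 1.89e-06), and JUN rose by 0.84 and was up by 0.52 at 10 h (adjusted p = 7.28e-09 and 4.59e-05).

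JUNB read 11.62, 11.58 and 11.00 at 0 h in knockdown cells, 11.35, 11.25, 10.87 and 10.80 at 4 h, then 12.26, 12.22, 12.05 and 11.82 at 8 h. Its rise of 1.02 ± 0.16 from 4 to 8 h passed the test (adjusted p = 6.96e-06). The change from 0 h was -0.33 at 4 h (adjusted p = 0.151) and passed without knockdown 0 h replicate 4 (-0.53, adjusted p = 0.0275). It also passed in 4 of 10 other settings, among them without the arrays numbered 4 (-0.44, adjusted p = 0.0103). JUNB was up by 0.69 at 8 h (adjusted p = 0.00227). At 10 h it was up by 0.48 (adjusted p = 0.0385), a call lost without knockdown 0 h replicate 4 (0.28, adjusted p = 0.298), without knockdown 10 h replicate 1, 2 or 3 (0.44 to 0.50, adjusted p = 0.0515 to 0.086), without the arrays numbered 4 (0.32, adjusted p = 0.0748) and when only the groups compared were fitted (adjusted p = 0.0519). ATF3 read 7.22, 6.76 and 6.49 at 0 h and 7.54, 8.00, 7.41 and 7.49 at 2 h. It rose by 0.78 ± 0.19 at 2 h (adjusted p = 0.00247), and its changes at 8 and 10 h were 0.12 and -0.04 (adjusted p = 0.687 and 0.926). Its 4 h change of 0.51 (adjusted p = 0.0427) missed the threshold when knockdown 0 h replicate 2 or 4 or knockdown 4 h replicate 1, 2 or 4 was dropped (0.34 to 0.53, adjusted p = 0.0584 to 0.249), or the arrays numbered 4 together (0.36, adjusted p = 0.153).

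Successive hours in knockdown cells gave 6 calls of 18, 2 up and 4 down, against 13.2% of all probe-set tests. They were 2, 3 and 1 of 6 from 2 to 4, 4 to 8 and 8 to 10 h, against 14.6%, 22.5% and 2.33% of all. FOS (0.82 ± 0.16, adjusted p = 0.000192) and JUNB rose and FOSL1 fell (-0.63 ± 0.11, adjusted p = 3.65e-05) from 4 to 8 h. The remaining 3 calls could each be lost by dropping a single array. FOSL1 fell by 0.44 from 8 to 10 h (adjusted p = 0.0227), which missed the threshold when knockdown 8 h replicate 1 or either of knockdown 10 h replicates 2 and 3 was dropped (adjusted p = 0.0518 to 0.127). FOSL2 (-0.26, adjusted p = 0.0324) and JUN (-0.27, adjusted p = 0.0306) fell from 2 to 4 h. Without knockdown 2 h replicate 2, 3 or 4 or knockdown 4 h replicate 1 or 2 the FOSL2 call was lost (adjusted p = 0.0531 to 0.149), and without knockdown 2 h replicate 3 or knockdown 4 h replicate 2 or 4 that of JUN (adjusted p = 0.0798 to 0.104). The JUN step was not called without the arrays numbered 4 either (-0.25, adjusted p = 0.0674).

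**Figure D3:**
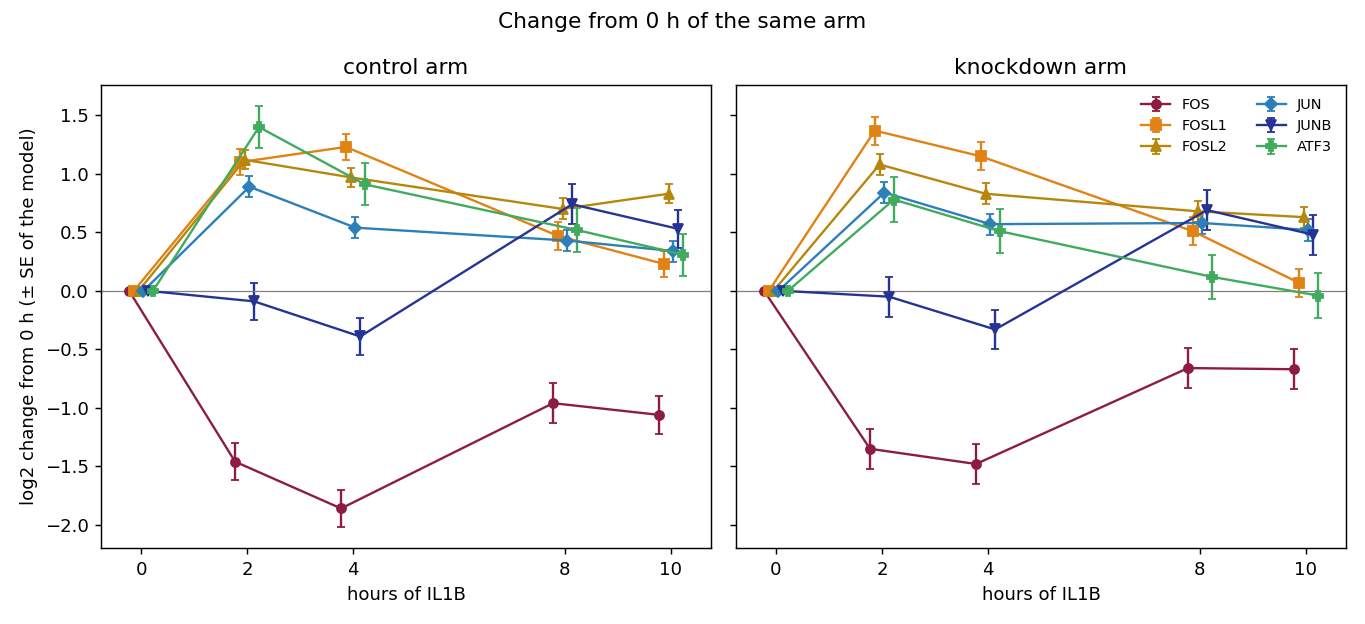
Log2 change from 0 h of the same arm (vertical axis) against hours of IL1B in control (left) and knockdown (right) cells, with bars for the standard error of limma's model. FOS lies below 0 at every treated hour in both arms, JUNB is the only member near 0 at 2 h, and FOSL2 and JUN stay above 0 through 10 h.

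The third comparison asked what ORMDL3 knockdown did to these genes at each hour. The effects were small, with 25 of 30 differences above 0, against 48.4% of all probe-set differences. A single test of the 30 passed, against 3.30% of all probe-set tests, and 5 did at an unadjusted p of 0.05, against 15.8% of all. At 0, 2, 4, 8 and 10 h the shares called among all probe sets were 3.31%, 6.18%, 1.84%, 2.88% and 2.28%. The member called was FOSL1 at 2 h, where knockdown arrays read 10.38, 10.45, 10.19 and 10.34 and control arrays 9.85, 9.83, 9.88 and 10.12, without overlap. The difference was 0.42 ± 0.11 (1.33-fold, adjusted p = 0.0196). Dropping control 2 h replicate 1, 2 or 3, or knockdown 2 h replicate 1 or 2, ended the call (0.38 to 0.40, adjusted p = 0.0566 to 0.0683).

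Averaged over the 5 hours, 2 of 6 members were higher in knockdown cells, against 23.0% of all probe sets called (1574 of 14488 higher, 1758 lower). FOS was higher by 0.25 ± 0.07 (1.19-fold, adjusted p = 0.0148). By hour the FOS difference was 0.01, 0.12, 0.39, 0.32 and 0.40 at 0, 2, 4, 8 and 10 h, and none of these passed alone (adjusted p = 0.988, 0.696, 0.284, 0.384 and 0.231). The arrays of the arms overlapped at each hour. FOSL1 was higher by 0.16 ± 0.05 (1.12-fold, adjusted p = 0.0169), with 0.15, 0.42, 0.07, 0.20 and -0.01 at the same hours. Both mean differences stayed called without any single array, at 0.22 to 0.27 (adjusted p = 0.00754 to 0.0279) for FOS and 0.15 to 0.19 (adjusted p = 0.00227 to 0.0322) for FOSL1. For the other 4 genes the mean difference did not pass, and its 95% interval ran from -0.02 to 0.14 for FOSL2, -0.01 to 0.15 for JUN, -0.03 to 0.27 for JUNB and -0.10 to 0.23 for ATF3. With the replicate number as a fixed block, but not as a random one, the JUNB mean and FOS at 4, 8 and 10 h were called. Those values are given at the end, with the dependence on processing. At 0 h ATF3 was at 7.22, 6.76 and 6.49 in knockdown and 6.45, 6.63, 6.44 and 6.13 in control cells, a difference of 0.41 ± 0.19 (adjusted p = 0.289) with overlapping arrays. The small nucleolar RNA level was 7.45 ± 0.09 (SD, n = 3) and 7.10 ± 0.18 (SD, n = 4) in those groups. The 9 other settings, which include this level as a covariate, put the ATF3 difference at 0.18 to 0.48 without a call (adjusted p = 0.11 to 0.694). A cause of that difference was not tested.

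**Figure D4:**
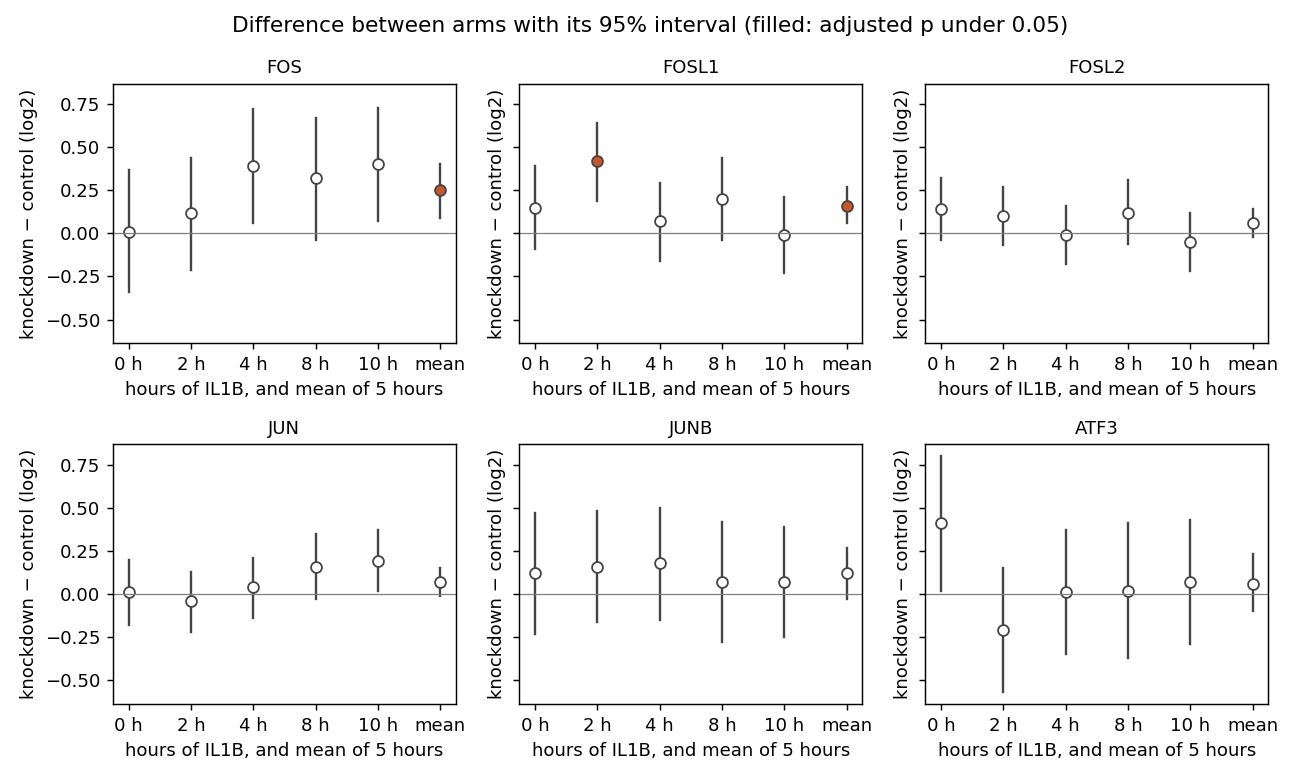
Knockdown minus control (log2, vertical axis) for each gene at 5 hours of IL1B and as their mean, with 95% intervals of limma's model, filled where the adjusted p was under 0.05. The filled points are FOSL1 at 2 h (0.42) and the means of FOS (0.25) and FOSL1 (0.16).

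The last comparison tested whether the response to IL1B differed between the arms. None of the 24 member tests passed in limma's test, against 0.102% of all probe-set tests, and 1 did at an unadjusted p of 0.05, against 8.70% of all. Among all probe sets the shares called were 0.0276%, 0.0690%, 0.228% and 0.0828% at 2, 4, 8 and 10 h. The member was ATF3 at 2 h, where the rise was 1.40 in controls and 0.78 in knockdown cells, a difference of -0.62 ± 0.26 with an interval from -1.15 to -0.09 (adjusted p = 0.342, 0.0531 to 0.712 over the other settings and 0.153 to 0.666 with single arrays left out). For FOS the intervals of the difference ran from -0.38 to 0.59 at 2 h and -0.10 to 0.87 at 10 h, and for JUNB from -0.54 to 0.45 at 8 h. FOSL2 had the tightest bounds at 2 h, from -0.29 to 0.22. The joint test over 4 hours gave adjusted p-values of 0.851, 0.655, 0.866, 0.806, 0.997 and 0.781 for FOS, FOSL1, FOSL2, JUN, JUNB and ATF3, against 0.166% of all probe sets called. These intervals are wide enough to hold differences as large as some of the effects above.

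Among the 10 group means the courses of the members were compared by correlation, as a description, since all points share arms, hours and the same 38 arrays. FOSL2 and JUN ran most alike (r = 0.95), followed by FOSL1 and ATF3 (0.90), and FOS ran opposite to FOSL2 (-0.88), FOSL1 (-0.83), JUN (-0.78) and ATF3 (-0.77). JUNB lay apart, with -0.09 to JUN and 0.40 to FOS. Within groups the picture was another. Over the deviations of the 38 arrays from their group means FOS, JUNB and ATF3 varied together (r = 0.71 for FOS and JUNB, 0.69 for FOS and ATF3, 0.67 for JUNB and ATF3), although FOS and ATF3 ran in opposite directions over the hours, and FOSL2 varied against FOS (-0.50) and JUNB (-0.53). The arrays numbered 4 described above enter these values.

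The genes whose 10 group means were most like those of each member were taken from 5148 probe sets whose group means ranged over at least 0.5. FOS was nearest to TSC22D3, a glucocorticoid-induced gene (r = 0.977), FANCE (0.974) and TRIM24 (0.972). FOSL1 was nearest to FJX1 (0.988), the corepressor TLE3 (0.984) and EHD1 (0.982), and FOSL2 to CEBPD, itself a leucine zipper factor (0.987), SLC25A37 (0.984) and the NF-kB inhibitor TNFAIP3 (0.983). JUN was nearest to VEGFA (0.957), SOX2 (0.955) and the NF-kB inhibitor NFKBIA (0.950), and JUNB to PAQR5 (0.975), SLC26A6 (0.969) and TNFRSF12A (0.962). ATF3 was nearest to SNAI2, which encodes the transcription factor SLUG (0.978), FAM110A (0.970) and KLF6 (0.969).

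Other genes of the pathway were followed through 6 lists, of which 1 covered further dimer partners of AP-1, with 9 of 14 measured. As means of 4 hours in controls, 5 rose and 2 fell, against 39.3% of all probe sets called and 5 of the 6 members, and the list's median change was 0.19 (-0.02 over all probe sets). MAFF, a small Maf protein, rose by 1.20 ± 0.08, BATF3 by 0.94 ± 0.12 and CREB5 by 0.76 ± 0.10, and the others that rose were BATF2 (0.41 ± 0.09) and ATF2 (0.19 ± 0.04). FOSB, the closest relative of FOS, fell by 0.68 ± 0.17 (adjusted p = 0.00147), as did JDP2, a repressor of AP-1, by 0.25 ± 0.09 (adjusted p = 0.0325). Genes that only complete such a short count, here and in the other lists, were named after their values were seen. Like FOS, FOSB was low at 4 h (-1.47 ± 0.21, adjusted p = 6.9e-07) and rose from 4 to 8 h (0.99 ± 0.23, adjusted p = 0.0014), but at 2 h it was at -0.12 (adjusted p = 0.772). JUND, the remaining Jun gene, was also singled out so. It had no call in controls, with -0.02 ± 0.07 as the mean of 4 hours (adjusted p = 0.893). Of the list, 2 of 9 genes were higher in knockdown cells as means of 5 hours, against 23.0% of all probe sets called (1574 of 14488 higher, 1758 lower). They were CREB5, by 0.24 ± 0.06 (adjusted p = 0.0016), and FOSB, by 0.27 ± 0.10 (adjusted p = 0.045). The FOSB call was lost without any of 25 of the 38 single arrays (adjusted p up to 0.086).

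Of 17 measured other leucine zipper factors, 12 rose and 2 fell with IL1B in controls (median 0.29), against 39.3% of all probe sets called. CEBPD and CEBPB, activators of acute-phase genes, rose by 1.55 ± 0.05 and 0.99 ± 0.06, the heme-regulated repressor BACH1 by 0.81 ± 0.06 and NFIL3 by 0.60 ± 0.09, while DDIT3 (-0.28 ± 0.10) and NFE2L1 (-0.15 ± 0.06) fell. With knockdown 4 of the 17 were called, against 23.0% of all probe sets. BACH1 was higher (0.29 ± 0.03, adjusted p = 4.28e-08), and CEBPG (-0.09), NFE2L1 (-0.10) and CREM (-0.08) were lower by small amounts (adjusted p = 0.014, 0.0357 and 0.0488). The NFE2L1 and CREM calls were lost when any of 12 and 28 of the 38 arrays was dropped (adjusted p up to 0.0916 and 0.0966). Among 19 kinases and factors upstream of AP-1, 9 rose and 2 fell with IL1B (median 0.14, 39.3% of all probe sets called). The p38 activators MAP2K3 and MAP2K6 moved apart, at 1.33 ± 0.05 and -1.27 ± 0.08, while MAP3K8, which feeds the ERK pathway, rose by 1.05 ± 0.07 and MAPK8, or JNK1, by 0.77 ± 0.07. RPS6KA1, an ERK-activated kinase, fell by 0.23 ± 0.05. In knockdown cells 5 of these 19 were higher and 1 lower, against 23.0% of all probe sets called, with RPS6KA5 at 0.35 ± 0.07, MAP3K1 at 0.24 ± 0.03, ELK3 at 0.17 ± 0.02 and MAP3K8 at -0.20 ± 0.04 (adjusted p = 0.000186, 3.11e-06, 4.36e-06 and 0.000601). MAP3K5 (0.13 ± 0.04) and RPS6KA3 (0.10 ± 0.03) were the other higher genes.

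Genes that end AP-1 signalling included phosphatases of MAP kinases. Of 13 measured, 7 rose and 1 fell with IL1B in controls (median 0.22, 39.3% of all probe sets called), led by DUSP16 (1.92 ± 0.05) and DUSP10 (1.70 ± 0.06), which act on JNK and p38, the ERK phosphatase DUSP6 (0.89 ± 0.07) and DUSP8 (0.84 ± 0.09), and DET1, part of a ubiquitin ligase for JUN, fell by 0.24 ± 0.09. In knockdown cells 3 of the 13 were lower, against 23.0% of all probe sets called (1574 of 14488 higher, 1758 lower). Of the 3, DUSP5, an ERK phosphatase, had the largest difference (-0.22 ± 0.05, adjusted p = 0.00253). The DET1 call (-0.17 ± 0.05, adjusted p = 0.0202) was lost without knockdown 0 h replicate 4 (adjusted p = 0.0506) and without the arrays numbered 4 (adjusted p = 0.139). That of DUSP16 (-0.09, adjusted p = 0.0427) was lost without 23 of the 38 single arrays (adjusted p up to 0.106) and in 4 of 9 other settings (adjusted p up to 0.133).

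Of 20 other immediate-early genes, 10 were up and 5 down at 2 h in controls, against 20.0% of all probe sets called, and 4 up and 9 down at 4 h, against 37.9%. As the mean of 4 hours 4 rose and 8 fell (median 0.05), against 39.3%. The matricellular genes CCN2 and CCN1 fell by 1.18 ± 0.09 and 0.82 ± 0.11, and KLF6 and KLF4 rose by 0.78 ± 0.05 and 0.72 ± 0.09, with ZFP36 (0.67 ± 0.16), which destabilises cytokine messenger RNA, and KLF10 (0.53 ± 0.10). In knockdown cells 7 of the 20 were higher as means of 5 hours (median 0.05 against -0.01 over all probe sets). Of all probe sets 23.0% were called (1574 of 14488 higher, 1758 lower). The 7 included CCN2 (0.34 ± 0.05, adjusted p = 1.19e-05), CCN1 (0.25 ± 0.06, adjusted p = 0.00453), the stress gene GADD45A (0.23 ± 0.05, adjusted p = 0.000433) and RHOB (0.19 ± 0.03, adjusted p = 0.000106). FOS, at 0.25, stood within the range of these.

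The last list held 20 measured genes that textbooks give as AP-1 targets, many of which NF-kB also controls. With IL1B in controls 14 rose (median 1.11), against 39.3% of all probe sets called (2623 of 14488 up, 3065 down). IL6 was at 4.77 ± 0.10, CXCL8 at 3.16 ± 0.08, CCL2 at 2.68 ± 0.06 and LAMB3 at 2.56 ± 0.09. With knockdown 7 of the 20 were higher, against 23.0% of all probe sets called (1574 of 14488 higher, 1758 lower). The 7 included MMP9 (0.44 ± 0.05, adjusted p = 9.86e-08), IL11 (0.37 ± 0.06, adjusted p = 3.1e-05), VIM (0.21 ± 0.03, adjusted p = 4.65e-06) and CCND1 (0.20 ± 0.03, adjusted p = 3.33e-05). Of the 6 lists it was the only one with a called difference in mean response between the arms, against 0.235% of all probe sets. IL6 responded less in knockdown cells (-0.82 ± 0.15, adjusted p = 0.00669), and so did the protease PLAU (-0.56 ± 0.12, adjusted p = 0.0218). IL6 lost its call when knockdown 0 h replicate 1 was dropped (-0.59, adjusted p = 0.0871), or when small nucleolar RNA entered as a covariate (-0.73, adjusted p = 0.0617). PLAU did so when control 0 h replicate 2 or 4 or any knockdown 0 h array was dropped (adjusted p = 0.0581 to 0.123), and in 3 of 9 other settings (adjusted p up to 0.184).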

How the data were processed

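The deposited values are log2 expression levels per probe set; per the submitters' processing notes, RMA, Affymetrix Power Tools, hg19 and limma 3.22.7 were used, with no role or order stated. No further normalization was applied. Groups and replicate numbers came from the labels. A linear model with 1 mean per group was fitted to all 38 arrays and 14488 probe sets with limma 3.58.1 (R 4.3.3), with empirical Bayes moderation. Values after ± are standard errors of that model unless marked SD, and adjusted p-values are limma's, Benjamini-Hochberg over all probe sets in each contrast, called under 0.05. Named genes were all members, ORMDL3, the 3 genes most like each member, and up to 4 called genes with the largest change per list. For a listed gene with several probe sets, only the one with the highest mean level was used. DET1 and CCND1 had 2 probe sets each. Members and lists were chosen with earlier results of these data known. The test was run on simulated data before use. Alternatives covered normalization, centring, a filter on dim probe sets, the variance model, array weights, the replicate number, the samples fitted, single arrays and, added after seeing the data, the small nucleolar RNA level. Precision is limited by the number of arrays, and detection values were not used. Collections at 6 and 24 h named in the protocol are not analysed here.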

Additional observations from a re-analysis of the deposited data

Results flagged for a closer look

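In 4 of the 48 sets of 4 arrays tested over the 6 genes, 1 array lay far from the other 3, with a gap above Dixon's critical share of the range at 95%, which chance passes in about 1 set in 20. FOSL1 in the control 2 h array numbered 4 was at 10.12 against 9.83 to 9.88 in the others (0.834 of the range). FOSL1 in the knockdown 4 h array numbered 4 was at 10.31 against 10.05 to 10.06 (0.963). FOSL2 in the knockdown 2 h array numbered 1 was at 11.69 against 11.78 to 11.79 (0.904), a gap that is small on the log2 scale. ATF3 in the control 2 h array numbered 4 was at 7.34 against 7.94 to 8.03 (0.861).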

How the results depend on the processing

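Over 10 settings, 1520 of 1569 member values kept their side of the threshold, though 40 of these, uncalled in both, changed sign. A further 11 lost a call, 38 gained one, and no called value reversed. With each of the 38 arrays left out, 6105 of 6156 kept their side, 103 of them uncalled with a change of sign, while 33 lost a call, 18 gained one and no called value reversed. The filter on dim probe sets left out ATF3. Quantile normalization and median subtraction shifted the median of all probe sets by -0.04 to 0.06.

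Calls from 0 h numbered 20 in controls (18 to 22 over the settings, 19 to 21 with single arrays left out) and 19 in knockdown (17 to 20, and 18 to 19). Calls at successive hours numbered 5 in controls, 4 to 7 with single arrays left out, and 6 in knockdown, 4 to 6 with single arrays left out and 3 when only the groups compared were fitted. The call between arms at single hours (1) became 2 with array weights, and ran from 0 to 1 with single arrays left out. Response differences stayed at 0.

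Same-numbered arrays of different groups correlated at -0.29 to 0.62 in their deviations (162 pairs, median 0.18, 107 over 0.1), and arrays with different numbers at -0.53 to 0.48 (487 pairs, median -0.06, 104 over 0.1). Same-numbered pairs thus had the higher median, but some lay under 0.1 and the labels do not say what the number marks. The arrays were therefore not treated as paired, and any effect shared by a number stayed in the error of the main model. Control 8 h and knockdown 0 h each lacked an array of some number, so such an effect can also enter comparisons with them. With the replicate number as a block, calls at successive hours in controls became 9 (8 as a random block) and calls from 0 h 21 and 20. Calls between arms at single hours became 4, FOS at 4, 8 and 10 h being added (0.39, 0.41 and 0.40, adjusted p = 0.0211, 0.0298 and 0.0174), but stayed at 1 with the number as a random block. As means, JUNB was then called between arms (0.14, adjusted p = 0.00162) and with IL1B in controls and knockdown (0.17 and 0.21, adjusted p = 0.0125 and 0.00934), calls that the random block did not give.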
